A study of Daphnia magna with 40 samples.

Results

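The 200 probes described here are the brightest unsaturated probes of a Daphnia magna array whose mean signal was about equal in adults and in juveniles. For each of 40 arrays, each spot's log2 processed intensity was expressed relative to the 75th percentile of that array, and spots of a probe were averaged. The result is called the scaled signal below, so that a value of 1 is a 2-fold brighter spot than the 75th percentile. Of 14338 probes, 14065 were saturated on no array, and 6750 of these also had adult and juvenile means less than 0.5 apart. The 200 members are those of the 6750 with the highest mean over all arrays, or 1.39% of all probes. They were chosen by their mean scaled signal and their stage difference, which are given as a description, without a test. The treatment contrasts within a stage were not themselves used to choose them and were tested. The choice can still touch them, because the stage means include the treated arrays and saturation on any array excludes a probe. Member shares below those of all tested probes can therefore follow in part from the choice. Their spread between like-treated animals is described without a test.

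Whole water fleas of a single laboratory clone, clone F, were profiled in 10 groups of 4 arrays. In each of 2 stages the groups were acetone carrier alone at 0.1 mL/L, fluvoxamine at 10 µg/L (FV10), fluoxetine at 40 µg/L (FX40), and nonylphenol at 20 µg/L (NP20) and 60 µg/L (NP60), and the treated animals received the same carrier. The series text instead has 30 ppb of fluvoxamine and 80 ppb of fluoxetine, and which doses hold could not be settled. Juveniles were under 24 h old at the start, were exposed for 3 days and were pooled by 20 per sample. Adults were egg-bearing females of 8 to 9 days, exposed over 3 broods (10 to 14 days), whose eggs were washed out before freezing. The number of females per sample and the way adult replicates were kept are not stated, so p-values for adults rest on a spread that could be technical in part.

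Transcripts that are abundant in a whole animal usually come from genes that most cells run all the time, such as those for protein synthesis, energy supply and the cytoskeleton, or from a few tissues that make a product in bulk, such as gut enzymes, yolk proteins or cuticle. Transcripts of the first kind are the usual source of reference genes, against which others are scaled, and their use rests on a steady level across the conditions compared. Both fluoxetine and fluvoxamine are antidepressants that inhibit serotonin reuptake. Nonylphenol forms when certain surfactants degrade. The files give each probe as an ID with a target name and do not pair either with a gene, and none matched the gene table used, so no member is assigned a function. A probe's brightness also depends on how well its sequence hybridises, so the order of the signals is not an order of transcript abundance.

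Brightness alone would have chosen a different set. In all, 663 probes had a mean at or above that of the last member. Of these, 225 were saturated on at least 1 array, and 238 were unsaturated with a stage difference of 0.5 or more, 96 of them higher in adults and 142 higher in juveniles. The latter 238 are called the other bright probes below. The members held ranks 113 to 663 by mean signal. Their mean scaled signals ran from 3.96 to 6.69 with a median of 4.75, which is 15.6 to 103 times the 75th percentile with a median of 26.9. All 200 were well above background on all 40 arrays, and 167 lay in the top 10% of signals on every array. The stage difference, adult minus juvenile, ran from -0.49 to 0.48 with a median of -0.03, and 93 members were higher in adults and 107 in juveniles. For 107 members the difference was under 0.25.

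The limits of the rule ran between probes of nearly equal values. The last member, DM08601P3, had a mean of 3.964, and the first probe below it, DM00396P1, had 3.961. The members nearest the stage limit were DM05138P3, at 0.476 higher in adults, and DM07143P1, with an adult minus juvenile difference of -0.493. The first bright probes past it were DM08192P1 at 0.505 and DM06804P1 at -0.506. Membership near these limits therefore rests on differences far smaller than the spread between arrays given below.

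The 5 members with the highest mean were DM10470P2, DM03849P2, DM09971P1, DM04128P2 and DM08093P1. DM10470P2 ran from 5.60 over a median of 6.42 to 7.67 on the 20 adult arrays and from 5.98 over 6.84 to 7.87 on the 20 juvenile arrays. DM03849P2 ran from 5.88 over 6.46 to 7.12 on 19 adult arrays and from 5.90 over 6.62 to 7.74 in juveniles. DM09971P1 ran from 4.37 over 6.46 to 7.45 on 19 adult arrays and from 5.32 over 6.58 to 7.12 in juveniles. In all 3 the ranges of both stages overlapped over most of their length. DM04128P2 ran from 5.73 over 6.33 to 7.58 in adults and from 5.68 over 6.04 to 6.60 in juveniles. DM08093P1 ran from 5.68 over 6.14 to 6.74 on 19 adult arrays and from 5.44 over 6.03 to 7.46 in juveniles. Even these probes spanned 3.62-fold (DM03849P2) to 8.50-fold (DM09971P1) between their dimmest and brightest array.

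Arrays differed in brightness, and the median scaled signal of the members was mostly lower on brighter arrays. The 75th percentile of the processed intensity was 76.9 to 484.6 units on adult arrays and 204.7 to 773.6 on juvenile arrays. The median scaled signal of the members was 4.43 (adult NP20 G) to 5.14 (juvenile FV10 A and B). Juvenile FV10 A and B were the dimmest juvenile arrays, with a log2 75th percentile of 7.68 each, and the brightest adult array, FX40 C at 8.92, had a member median of 4.53. The brightest juvenile arrays, acetone A at 9.60 and NP60 B at 9.55, had member medians of 4.76 and 4.81. In a fit with brightness as an added term, chosen after seeing the data, the slope was below 0 for 159 of the 200 members (79.5%) in adults, against 74.8% of the other bright probes and 49.6% of all tested probes. In juveniles it was below 0 for 148 members (74.0%), against 70.6% of the other bright probes and 61.8% of all tested probes. The other bright probes thus shared most of this lean. The scaled signal has the same 75th percentile subtracted, so brightness is contained in it with a minus sign. A slope below 0 can therefore follow in part from the scaling alone, whatever its p-value. The slope passed an adjusted p of 0.05 in limma for 0 members in adults, where 0.43% of all tested probes were called, and for 6 members in juveniles, where 2.83% were called. An unadjusted p under 0.05 was found for 20 members in adults (10.0%, against 9.38% of all tested probes) and for 43 in juveniles (21.5%, against 18.6%). On average FX40 adults had a log2 75th percentile 1.07 above acetone adults, NP20 adults 1.03 and NP60 adults 0.71 above, while FV10 juveniles lay below acetone juveniles by 0.81 (-0.81). Changes from the fit with brightness as a covariate are given beside those results below that it altered.

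**Figure D1:**
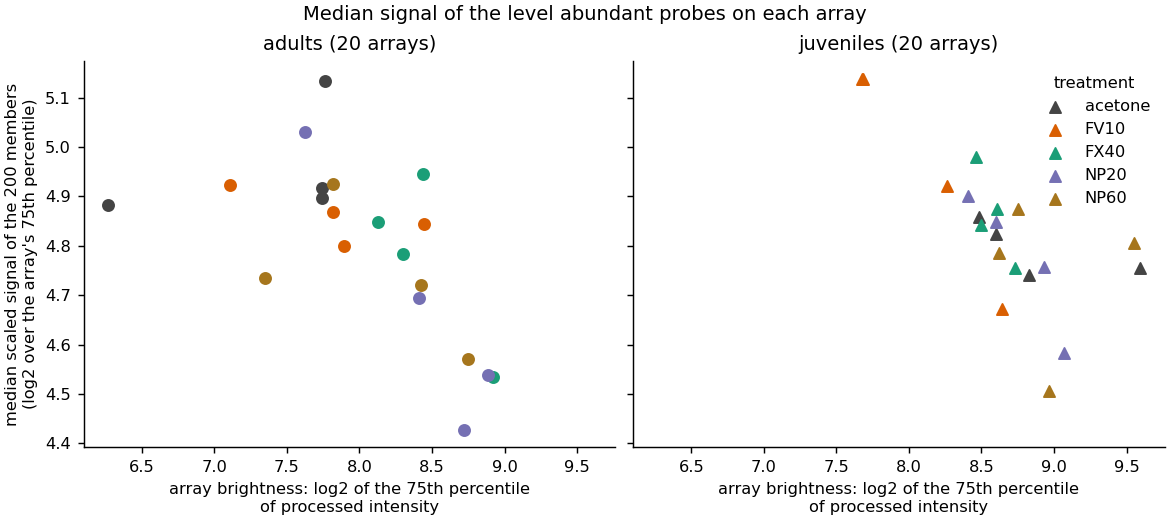
Each point is an array; the horizontal axis is the log2 75th percentile of its processed intensity and the vertical axis the median scaled signal of the 200 members, with adults as circles, juveniles as triangles and colours for treatments. Brighter arrays mostly had lower member medians, such as 5.14 on juvenile FV10 A and B at 7.68 and 4.53 on adult FX40 C at 8.92. Arrays at both ends departed from this. The dimmest adult array, acetone E at 6.27, lay at 4.88. The brightest arrays, juvenile acetone A at 9.60 and juvenile NP60 B at 9.55, lay at 4.76 and 4.81.

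A single control array stood apart. The scanner software marked 1379 of the 15208 non-control spots of adult acetone G as outliers, against 5 to 219 on any other array. Such spots were left out of the fits. There, 92 of the 200 members had no value, against at most 13 elsewhere, so their adult acetone mean rests on 3 arrays. The loss on this array thus fell more heavily on the members than on its spots at large, and it enters every adult comparison. The member median on this array was 5.13 with the marked spots left out and 4.75 with them kept. The 92 members left out had a median of 4.46 there when kept, and their means over the other 3 acetone arrays had a median of 4.93. The median adult changes and the FV10 interaction count are therefore given both ways below.

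Between like-treated arrays the members spread less than probes at large. In adults the within-group SD of the scaled signal, from the residuals of 20 arrays in 5 groups, had a median of 0.363 over members, 0.436 over the other bright probes and 0.661 over all 12547 tested probes. In juveniles these medians were 0.380, 0.384 and 0.601, the last over 12880 probes. The SD was under 0.5 for 149 members in adults (74.5%, against 32.7% of all tested probes) and for 145 in juveniles (72.5%, against 36.6%), and in both stages for 128. Among the other bright probes it was under 0.5 for 61.8% in adults and 72.3% in juveniles. Juvenile members thus had a median and a share close to those of bright probes that differ between stages. The demand that no spot be saturated limits upward excursions, so these medians are a description. Across members, the SDs in adults and juveniles had a Spearman correlation of 0.63, and across the 12346 probes tested in both stages one of 0.66, both over probes that share their arrays. For the 15 members spotted in duplicate, 566 spot pairs gave a median SD between single spots of the same array of 0.327. The median within-group SDs of these members were 0.408 in adults and 0.379 in juveniles. The latter are SDs of values averaged over spots, so the 0.327 of single spots overstates the part that spot noise has in them.

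**Figure D2:**
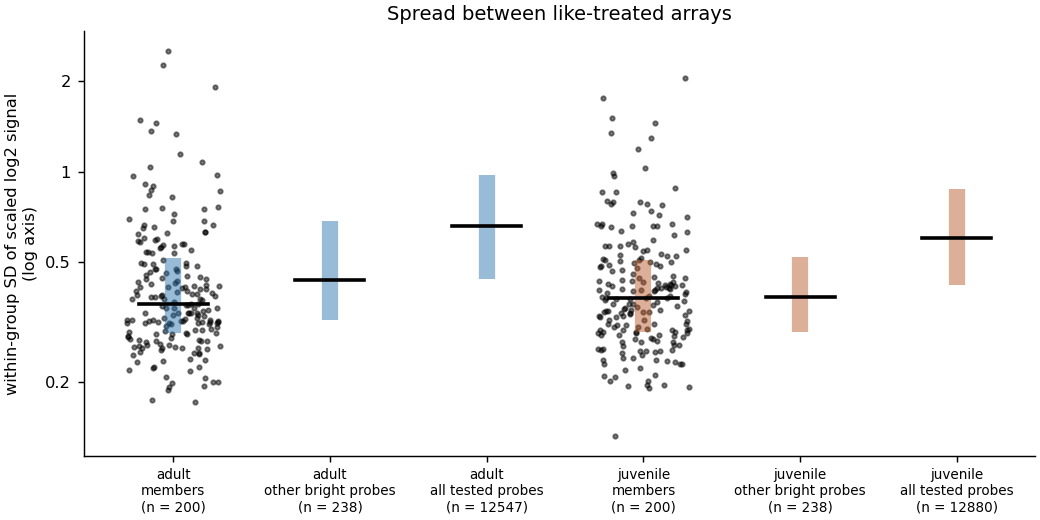
Within-group SD of the scaled log2 signal (log axis) by stage, for the 200 members (points), the 238 other bright probes and all tested probes; bars span the quartiles and black lines mark medians. The member median was 0.363 in adults and 0.380 in juveniles, below the 0.661 and 0.601 of all tested probes, and a few members lay above 1.

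The steadiest members held within a narrow band. In adults these were DM06983P3 (SD 0.172), which ran from 4.01 over 4.23 to 4.74 on 20 arrays, and DM02673P2 (SD 0.174), which ran from 4.65 over 4.98 to 5.24 on 19. In juveniles they were DM01262P1 (SD 0.132), from 3.50 over 3.83 to 4.25, and DM00313P1 (SD 0.192), from 4.47 over 4.75 to 5.35. None of the 4 was as steady in the other stage, with SDs of 0.300 and 0.254 in juveniles for the first pair and 0.281 and 0.246 in adults for the second. As each pair was picked for the lowest SDs of its stage, a higher SD in the other stage was likely from the choice alone. Their adult minus juvenile differences were -0.48 for DM06983P3, -0.37 for DM02673P2, 0.45 for DM01262P1 and -0.29 for DM00313P1.

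Some members were bright on average and far from steady. The SD was over 1 for 10 members in adults (5.0%, against 23.4% of all tested probes), for 8 in juveniles (4.0%, against 17.5%) and for 5 in both. Among the other bright probes it was over 1 for 16.0% in adults and for 4.2% in juveniles, the latter close to the share of members. DM08020P3 had the highest SD in both stages, 2.53 in adults and 2.05 in juveniles. It ran from -3.84 on adult NP20 B to 7.47 on adult acetone G, a 2528-fold span. DM12199P3 followed with SDs of 2.25 and 1.75 and ran from -0.58 on adult NP20 B to 7.73 on adult FV10 E. Both passed the rule because their stage means were alike, with adult minus juvenile differences of 0.12 and -0.34.

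These 2 members moved together from array to array, and so did DM06604P3 (SD 1.91 in adults, 1.19 in juveniles), which was added after its values were seen. In acetone juveniles A to D, DM08020P3 read 5.59, 6.26, 6.23 and 1.01, DM12199P3 read 6.68, 6.90, 7.15 and 2.67, and DM06604P3 read 5.16, 5.92, 5.40 and 3.87. Array D was the lowest for all 3. In NP20 adults B, C, E and G, DM08020P3 read -3.84, 5.36, 6.26 and 2.73, DM12199P3 read -0.58, 4.60, 7.56 and 5.10, and DM06604P3 read -0.85, 4.59, 6.59 and 5.73. Array B was the lowest for all 3 and array E the highest. Over deviations from group means, Pearson's r was 0.955 for DM12199P3 with DM08020P3 (40 arrays; Spearman's rho 0.948), and 0.945 without the 2 arrays farthest from the median. It was 0.910 for DM12199P3 with DM06604P3 and 0.901 for DM08020P3 with DM06604P3 (39 arrays; rho 0.914 and 0.879), and 0.879 and 0.865 without the farthest arrays. Within a stage r lay between 0.884 and 0.969. The same array was the lowest of its group in 9 of 10, 8 of 9 and 9 of 9 groups with 4 values, and the same array was the highest in 9 of 10, 5 of 9 and 6 of 9. As the members were picked for their spread, these correlations are a description. Over all pairs of members the median r of such deviations was 0.136. No treatment change of the 3 had an adjusted p under 0.05 in limma.

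**Figure D3:**
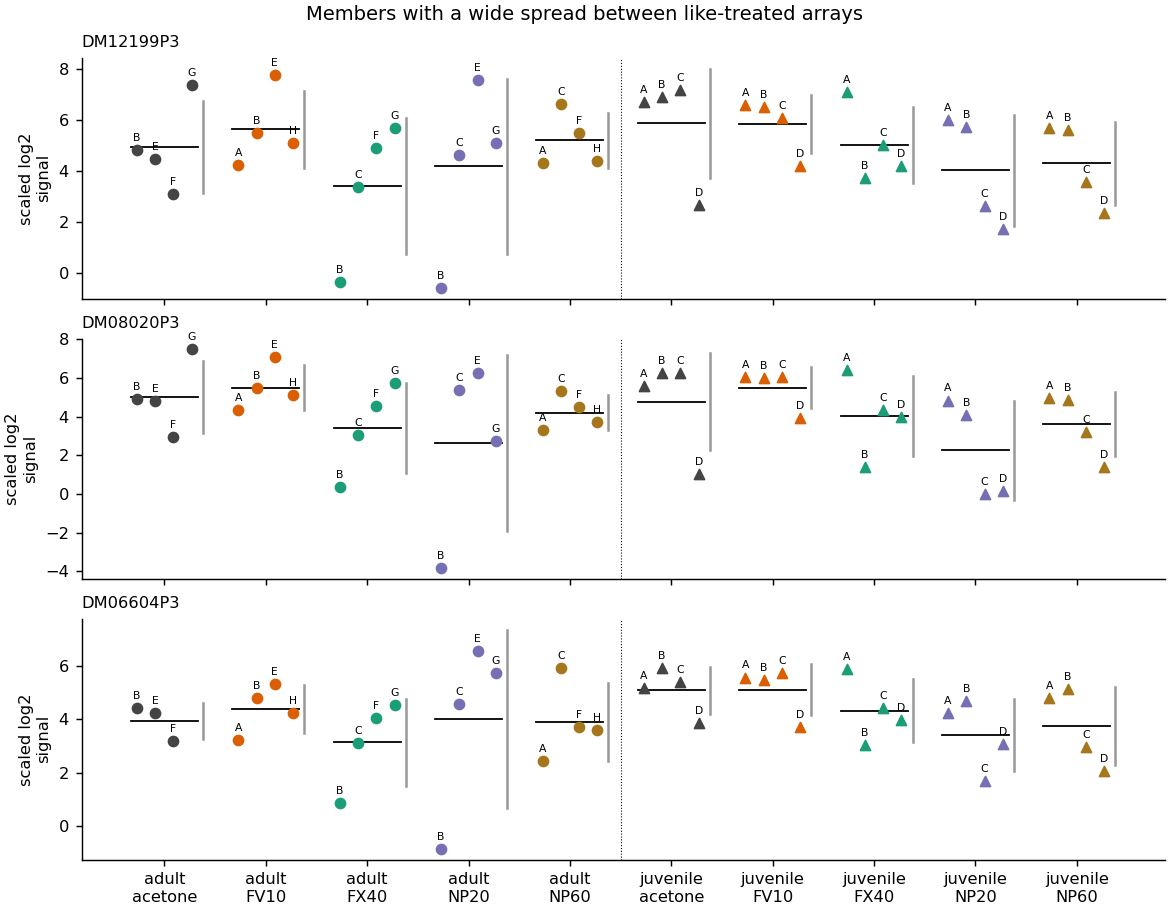
Scaled log2 signal of DM12199P3, DM08020P3 and DM06604P3 on each array, by group; letters are replicate names, black lines group means and grey bars 1 SD to either side of the mean over up to 4 arrays. The 3 probes shared their low arrays, such as adult NP20 B (-0.58, -3.84 and -0.85) and juvenile acetone D (2.67, 1.01 and 3.87).

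The equal stage level held for the mean over treatments and less closely within each. Adult and juvenile group means of a treatment lay under 0.5 apart for 125 of the 200 members in acetone, 143 in FV10, 159 in FX40, 139 in NP20 and 165 in NP60. Over all probes the shares were 37.0%, 39.8%, 44.3%, 40.5% and 43.1%. The difference was under 0.5 in all 5 treatments for 61 members and under 1 in all 5 for 168. The median member difference, adult minus juvenile, was 0.19 in acetone, -0.10 in FV10, -0.15 in FX40, -0.10 in NP20 and -0.03 in NP60. DM08363P1 showed the widest positive gap in FV10, where adults were 1.62 higher, although its overall stage difference was 0.003. These values come from the contrast that chose the members and carry no test.

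In adults no member passed the threshold in any treatment. The fit gave each of 4 treatments a change against acetone on the log2 scale, and p-values from limma were adjusted by the Benjamini-Hochberg method over all tested probes, with a threshold of 0.05. For FV10, 0 of 200 members were called, where 0.0% of all 12547 probes were, and 12 members had an unadjusted p under 0.05 (6.0%, against 8.11% of all). For FX40, 0 were called, where 0.383% of probes were, and 30 had an unadjusted p under 0.05 (15%, against 14.9%). For NP20, 0 were called against 0.0% of all, and 40 had an unadjusted p under 0.05 (20.0%, against 16.0%). For NP60, 0 were called against 0.0% of all, and 17 had an unadjusted p under 0.05 (8.5%, against 6.62%). All 4 comparisons share the acetone arrays. Without acetone G, 4 members were called in FX40 and 1 in NP20, and without NP20 C 5 were called in NP20. For counts without single arrays or under other settings, here and below, the share of all tested probes called is not given. Such counts show only how far the calls depended on those arrays or settings. Changes beyond 2-fold either way were estimated for 9 members in FV10 (4.5%, against 12.8% of all tested probes), 11 in FX40 (5.5% against 15.5%), 16 in NP20 (8.0% against 17.7%) and 5 in NP60 (2.5% against 9.72%).

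The adult changes of the members leaned below 0. Their median was -0.09 in FV10, where 117 of 200 estimates were below 0, -0.22 in FX40 (135 below), -0.28 in NP20 (155 below) and -0.23 in NP60 (146 below), while the medians over all tested probes were 0.09, 0.05, 0.02 and 0.00. Over the other bright probes they were -0.02, -0.09, -0.21 and -0.12, below 0 as well. With the marked spots of acetone G kept, the member medians were -0.03, -0.13, -0.22 and -0.16. With brightness in the fit they were -0.01, -0.07, -0.14 and -0.10, and with the replicate letter as a block -0.09, -0.11, -0.18 and -0.14. The deposited log2 table gave 0.04 for FV10, the opposite sign, and -0.07, -0.13 and -0.06 for the others, and after normexp background correction all 4 turned to 1.13, 1.17, 0.72 and 1.04, with medians over all tested probes between -0.94 and -0.58. The direction of the member median in adults therefore depended on the processing.

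The adult treatment test, a moderated F test over all 4 changes, called 0 members, against 0.0% of all probes. It gave 17 members an unadjusted p under 0.05 (8.5%, against 10.5% of all). The lowest p was that of DM09117P4 (adjusted p = 0.243). It read 6.16, 5.93 and 5.18 on acetone arrays B, E and F and 4.63, 4.19, 4.57 and 4.51 on the 4 FV10 arrays. In FX40 it read 5.04, 3.74, 4.63 and 3.57, in NP20 3.32, 4.46, 3.65 and 4.31, and in NP60 4.29, 3.78, 4.22 and 4.18. The 3 acetone values lay above all 16 values of treated adults. Its spot on acetone G was marked as an outlier and would have read 3.99, which lies within the treated range.

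**Figure D4:**
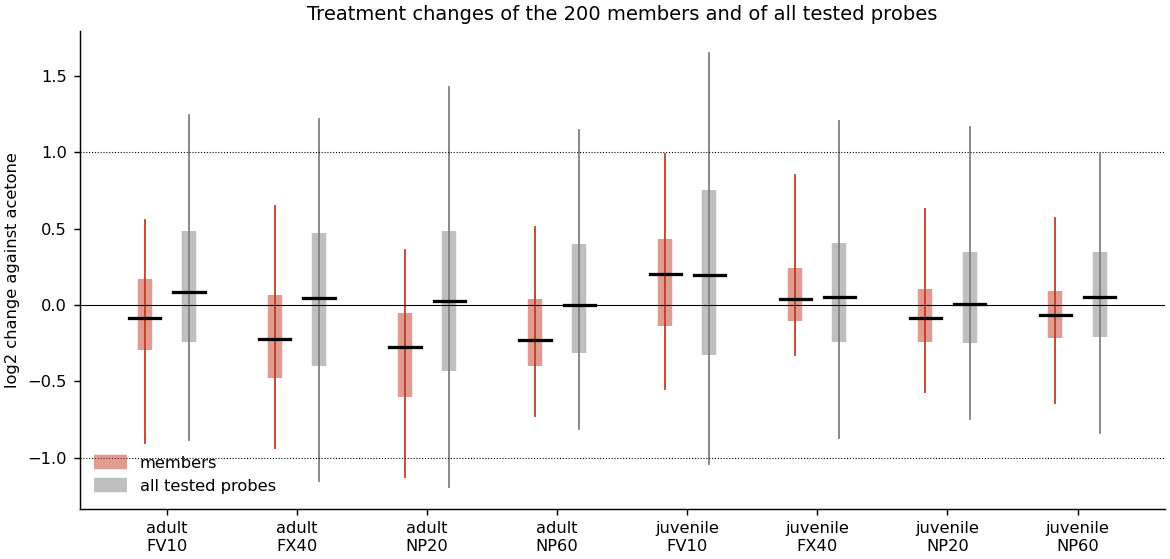
Log2 change against acetone in each of the 8 comparisons for the 200 members (red) and all tested probes (grey); thick bars span the quartiles, thin lines the 5th to 95th percentile, black marks are medians and dotted lines a 2-fold change. Members lay closer together than probes at large in every comparison, with medians from -0.28 (adult NP20) to 0.20 (juvenile FV10).

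In juveniles fluvoxamine was the treatment in which members changed, and a single one, DM08363P1, stood out. In limma 7 of 200 members were called for FV10, of which 5 rose and 2 fell, or 3.5% of the members where 7.92% of all 12880 tested probes were called. At an unadjusted p under 0.05 there were 29 members (14.5%, against 26.5% of all). The estimated change was beyond 2-fold for 13 members (6.5%, against 22.5%). The median change was 0.20, the same as over all tested probes. With brightness in the fit it was -0.01, against 0.01 over all tested probes. The deposited log2 table gave 0.07, against -0.02 over all tested probes. The size and sign of this median therefore depended on the processing.

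DM08363P1 was lower in FV10 juveniles. It read 5.84, 6.28, 6.68 and 6.58 on acetone arrays A to D and 3.96, 4.07, 4.07 and 3.85 on FV10 arrays A to D, or 6.34 ± 0.38 against 3.99 ± 0.11 (SD, n = 4 each). All 4 FV10 values lay below all 4 acetone values. The log2 change was -2.36 (SE 0.30, limma adjusted p = 0.00184). In the other treated juveniles it read 5.76 to 6.40 in FX40 and 5.87 to 6.40 in NP60. NP20 read 6.04, 6.07, 5.86 and 4.59, so that only array D came near the FV10 values. It was also the only member called by the juvenile F test over 4 treatments (adjusted p = 0.0104), where 0.0311% of all probes were called and 28 members had an unadjusted p under 0.05 (14.0%, against 19.3% of all). That count was 0 without FV10 A, B or D and 16 without FV10 C. In adults the same probe read 6.69, 6.36, 5.95 and 6.14 in acetone and 5.22, 5.15, 6.53 and 5.52 in FV10, a change of -0.68 with overlapping groups (adjusted p = 0.657).

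DM11659P1 was the other member that fell. It read 5.98, 5.40, 5.70 and 5.79 in acetone juveniles and 4.68, 4.53, 5.10 and 4.92 in FV10 juveniles, and the groups did not overlap. Its log2 change was -0.91 (SE 0.23, limma adjusted p = 0.0269). The most raised were DM12654P1 and DM08879P2. DM12654P1 read 3.94, 5.28, 5.19 and 4.96 in acetone and 6.36, 6.55, 5.39 and 5.93 in FV10, a log2 change of 1.21 (SE 0.31, adjusted p = 0.0286). The estimated change was also above 0 in FX40 (0.88), NP20 (0.66) and NP60 (0.98), with unadjusted p-values in limma of 0.0108, 0.0479 and 0.0056 and adjusted p-values of 0.455, 0.830 and 0.671. DM08879P2 read 3.90, 3.88, 3.94 and 3.77 in acetone and 5.35, 5.67, 4.59 and 4.67 in FV10, a log2 change of 1.20 (SE 0.27, adjusted p = 0.0217). In both, FV10 lay above all acetone values, and the dim arrays A and B were the highest. DM08093P1, a member of the brightest 5, also rose, by 0.99 (SE 0.28, adjusted p = 0.0376). It read 5.80, 5.89, 5.65 and 6.12 in acetone and 7.46, 7.36, 6.29 and 6.31 in FV10, again highest on arrays A and B.

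These calls rested on single arrays and on the model to different degrees. The count of 7 became 1 without FV10 A or B or without acetone A or C, and 2 without acetone D. It became 25 without FV10 C and 11 without FV10 D. It was 0 with slide as a block or after normexp correction, and 1 with brightness as a covariate or with only the arrays compared. As the share of all tested probes called in these fits is not given, whether the members moved more or less than probes at large is not shown. DM08363P1 kept its call in each fit that left out 1 array and with brightness (log2 change -2.45, adjusted p = 0.0329). It was not called once slide was blocked (-2.32, adjusted p = 0.0792), nor after normexp correction. With brightness as a covariate the log2 change was 0.47 for DM12654P1 (adjusted p = 0.496), 0.88 for DM08879P2 (adjusted p = 0.338) and -0.58 for DM11659P1 (adjusted p = 0.390), and none was called. FV10 and acetone juveniles shared 2 slides. Within slide 6 (FV10 C against acetone D) and slide 7 (B against A), DM08363P1 was -2.50 and -1.77, DM11659P1 -0.69 and -1.46, DM12654P1 0.43 and 2.61, and DM08879P2 0.82 and 1.77, each with the direction of the pooled change.

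**Figure D5:**
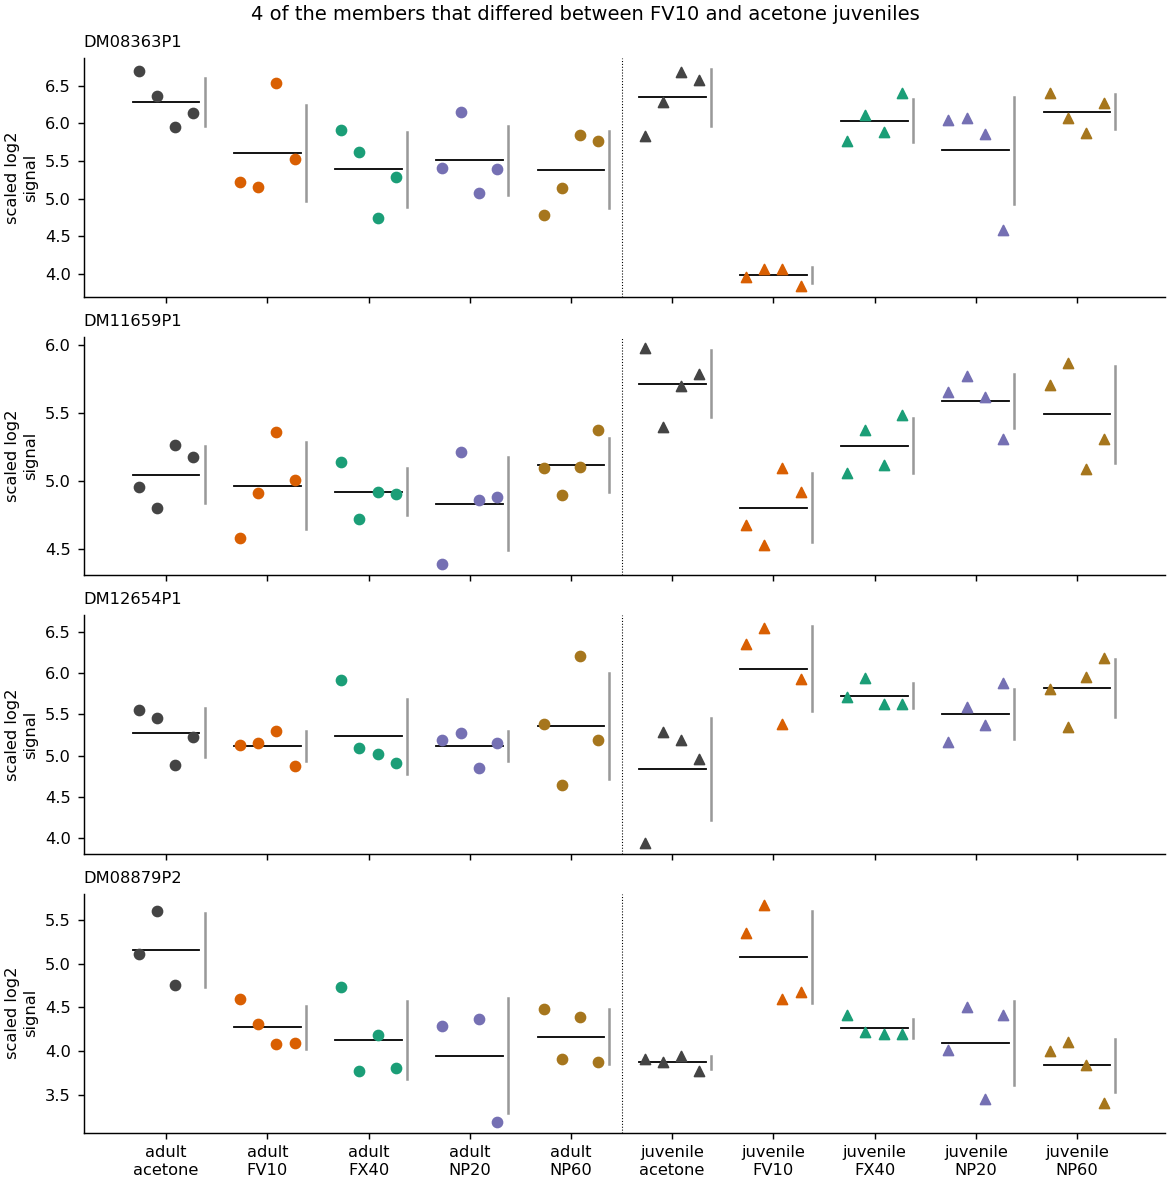
Scaled log2 signal of DM08363P1, DM11659P1, DM12654P1 and DM08879P2 on each array, by group, with circles for adults and triangles for juveniles; black lines are group means and grey bars 1 SD to either side over up to 4 arrays. FV10 juveniles read 3.85 to 4.07 for DM08363P1, below the 5.84 to 6.68 of acetone juveniles, while adult FV10 and acetone values overlapped.

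The other juvenile treatments gave no call among the members. For FX40, 0 of 200 were called in limma, where 0.00776% of all probes were, and 9 members had an unadjusted p under 0.05 (4.5%, against 8.42% of all). For NP20, 0 were called against 0.0%, and 8 had an unadjusted p under 0.05 (4.0%, against 5.97%). For NP60, 0 were called against 0.0%, and 12 had an unadjusted p under 0.05 (6.0%, against 5.4%). The median member change was 0.04 in FX40, -0.08 in NP20 and -0.07 in NP60, against 0.05, 0.01 and 0.05 over all tested probes. These values of under 0.1 changed sign under some of the settings. FX40 went as low as -0.03, for example with brightness as a covariate, while normexp correction kept its sign and gave 0.38. NP60 went up to 0.02, in the deposited log2 table, and NP20 to 0.32 after normexp correction.

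Whether a treatment acted differently in adults and juveniles was tested over all 40 arrays. The interaction F test called 0 members, against 0.0376% of 13282 probes, and gave 15 members an unadjusted p under 0.05 (7.5%, against 11.3%). It called 1 member without adult acetone G, adult NP20 C or juvenile NP20 D, 2 without adult FX40 B and 3 without juvenile FV10 C. DM08363P1 had the lowest p among members (adjusted p = 0.0615). Taken singly, the FV10 term called 5 members, where 3.12% of all probes were called. The adult change minus the juvenile change was -2.08 for DM08879P2 (SE 0.42, limma adjusted p = 0.0113), -1.96 for DM09117P4 (SE 0.42, adjusted p = 0.0129) and -1.50 for DM08093P1 (SE 0.37, adjusted p = 0.0224). It was 1.52 for DM02077P4 (SE 0.42, adjusted p = 0.0374) and 1.67 for DM08363P1 (SE 0.46, adjusted p = 0.0386). The FX40 term called 0 members against 0.444% of all probes, with 25 members at an unadjusted p under 0.05 (12.5%, against 13.4%). The NP20 and NP60 terms called 0 members against 0.0%, with 13 and 14 at an unadjusted p under 0.05 (6.5% against 9.34%, and 7.0% against 5.45%).

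In 4 of these 5 members the adult side of the FV10 difference rests on 3 acetone arrays, because the spot on acetone G was left out. DM08879P2 read 5.11, 5.60 and 4.75 on acetone adults B, E and F, and 4.60, 4.31, 4.08 and 4.09 on FV10 adults. The adult groups did not overlap and were ordered the other way round than in juveniles. On acetone G the marked spot read 3.93, below all FV10 adults. DM02077P4 read 4.40, 4.50 and 3.14 on acetone adults, 4.88, 5.16, 4.88 and 5.01 on FV10 adults, 5.30, 4.91, 5.15 and 4.18 on acetone juveniles and 4.17, 4.46, 4.49 and 4.21 on FV10 juveniles. With the marked spots kept, 3 members were called by the FV10 term, and with brightness as a covariate 0 were. The count ran from 2 to 19 when single arrays were left out, falling to 2 without adult FV10 E or without juvenile FV10 A or B, to 3 without adult FV10 H or juvenile acetone C, and rising to 8 without adult FV10 A and 19 without juvenile FV10 C.

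A missed threshold does not show a steady level, so the 95% confidence interval of each change was set against a 2-fold bound (-1 to 1 on the log2 scale), each interval without adjustment. All 4 treatment intervals lay within 2-fold for 71 members in adults (35.5%), against 28.6% of the other bright probes and 13.3% of all tested probes. In juveniles they did for 84 members (42.0%), against 37.0% of the other bright probes and 14.0% of all. All 8 intervals did for 48 members (24.0%), against 16.4% of the other bright probes and 5.91% of the probes tested in both stages, and for 93 members all 4 did in neither stage. By comparison, the interval lay within 2-fold for 128 members in adult FV10 (64.0%, against 28.0% of all), 96 in FX40 (48.0% against 21.8%), 91 in NP20 (45.5% against 22.3%) and 107 in NP60 (53.5% against 26.9%). In juveniles these counts were 108 in FV10 (54.0% against 21.5%), 137 in FX40 (68.5% against 34.0%), 135 in NP20 (67.5% against 36.7%) and 138 in NP60 (69.0% against 36.1%). The median distance from a member's estimate to either end of its interval was 0.61 to 0.62, so a member could meet the bound only if its estimate was small.

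The 4 steadiest members DM06983P3, DM02673P2, DM01262P1 and DM00313P1 met the 2-fold bound in all 8 comparisons. They were picked for a low SD in a stage, and the intervals are computed from that SD, so this follows in part from the choice. The last member by signal, DM08601P3, met the bound in all 8 as well. Of the 5 brightest members only DM04128P2 met it in a whole stage, the juveniles. Within 1.5-fold, all 4 intervals lay for 1 member in adults and for 3 in juveniles. The group means of a stage spanned less than 1 on the log2 scale for 169 members in adults (84.5%, against 71.0% of the other bright probes and 59.3% of all tested probes). In juveniles it did for 165 (82.5%), against 85.7% of the other bright probes and 56.3% of all tested probes. A bound of 2-fold on all treatments could be placed for fewer than 1 member in 4.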

How the data were processed

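Whole animals were measured on 40 one-colour Agilent arrays on 7 slides. The scanner software was Agilent Feature Extraction 10.7.3.1, per the file headers. The deposited processed intensity is background-subtracted on a linear scale. The deposited table of the series holds log2 values. Set against the scanner files it followed signals quantile-normalized within each stage and centred per probe (r 0.964 to 1.000), no source used here gives any further step, and it served as an alternative for treatment changes only. The members were found by the stated rule with outlier-marked spots kept. In the fits such spots were left out and saturated spots kept. A probe entered a fit if at least 4 of its arrays were well above background. The fits used limma's lmFit and eBayes (version 3.58.1, R 4.3.3) and were checked on simulated data. Each stage's 20 arrays shared an estimate of the spread. The number of arrays limits the precision. The members, tests and naming rule were chosen with earlier results of these data known. Named were the 5 brightest members, per comparison the 2 most raised and 2 most lowered among those called, per stage the 2 lowest and 2 highest in SD, the lowest p of each F test, and members and probes at the limits of the rule. DM06604P3 and DM02077P4 were added after their values were seen. Alternatives were normexp (offset 50, on median signals, as the files hold no mean foreground signal), quantile normalization, the deposited table, outlier spots kept, no filter, only the arrays compared, slide as a fixed or random block, the replicate letter as a block, array weights, brightness, and each array left out. Chosen after seeing the data were scaling to the members' median, the brightness slope as a test, and all alternatives of the single FV10 interaction term.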

Additional observations from a re-analysis of the deposited data

Results flagged for a closer look

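Of 207 group values of 4 arrays checked, 14 had an array far from the other 3, where chance gives about 1 in 20. Juvenile acetone D recurred: it read 5.64 for DM06983P3 (others 4.60 to 4.73), 2.67 for DM12199P3 (others 6.68 to 7.15), 1.01 for DM08020P3 (others 5.59 to 6.26) and 3.01 for DM05138P3 (others 4.06 to 4.24). Juvenile FV10 D read 3.93 for DM08020P3 (others 6.01 to 6.03) and 3.70 for DM06604P3 (others 5.49 to 5.73). DM09971P1 was high on adult FX40 F at 7.45 (others 6.46 to 6.61) and low on adult NP60 C at 4.97 (others 6.42 to 6.44). DM08363P1 was low on juvenile NP20 D at 4.59 (others 5.86 to 6.07). Small gaps in tight groups were those of DM08879P2 on juvenile FX40 A (4.42, others 4.20 to 4.22), DM01262P1 on juvenile NP20 B (3.90, others 3.71 to 3.73) and NP60 A (3.87, others 3.60 to 3.64), and DM00313P1 on juvenile FX40 A (4.89, others 4.73 to 4.75). The member median of adult acetone G was 5.13 (others 4.88 to 4.92), with 92 members left out there.

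The FV10 change differed between stages in the single interaction term of limma for 5 of the 200 members, where 3.12% of all tested probes were called. Exposure length and sample make-up differed along with stage and cannot be told apart from it. The adult minus juvenile values were 1.52 (DM02077P4), -1.50 (DM08093P1), 1.67 (DM08363P1), -2.08 (DM08879P2) and -1.96 (DM09117P4), with adjusted p-values in limma of 0.0113 to 0.0386. Fewer members were called with brightness as a covariate or with the marked spots kept. The interaction F test over 4 treatments called none of the 5.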

How the results depend on the processing

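Of 175 recomputed values other than those without single arrays, 140 kept their direction and their side of the threshold or, for counts, stayed within 1.5 times, and none turned its direction (the median member changes, whose sign depended on the processing, are in the report and not among them); the cause of the differences below was not tested. After normexp correction the counts of called members were 10 in adult FV10, 129 in FX40 and 84 in NP60, 7 by the adult F test, and 0 in juvenile FV10, by the juvenile F test and by the FV10 interaction term, 0 members in either stage had all 4 intervals within 2-fold, and the median SD was 0.613 in adults and 0.614 in juveniles. The counts of called members in this section stand without the share of all tested probes called in the same fit. They show how the calls depended on the processing and are no result about the members against probes at large. Quantile normalization gave 1 call in adult FX40, 1 in adult NP20 and 2 by the interaction F test. Slide as a block gave 0 in juvenile FV10 and by the juvenile F test, with 27 members within 2-fold in adults and 52 in juveniles. Array weights gave 1, 13, 5 and 1 calls in adult FV10, FX40, NP20 and NP60, 1 by the adult F test, 4 in juvenile FV10, 1 in juvenile FX40, 0 by the juvenile F test, 5 by the interaction F test and 14 by the FV10 term. Brightness as a covariate gave 1 in juvenile FV10, 0 by the juvenile F test and 0 by the FV10 term, only the arrays of both groups gave 1 in juvenile FV10, and outlier spots kept gave 3 by the FV10 term. Within 1.5-fold, 1 adult and 3 juvenile members had all 4 intervals. Of the 200 members, 107 were also chosen with a stage limit of 0.25 and 119 with saturated probes allowed. Leaving out single arrays gave 0 to 4 calls in adult FX40, 0 to 5 in adult NP20, 1 to 25 in juvenile FV10, 0 to 16 by the juvenile F test, 0 to 3 by the interaction F test, 2 to 19 by the FV10 term and 0 to 0 in the other comparisons and the adult F test, and 48 to 73 adult and 71 to 91 juvenile members within 2-fold. The replicate letters were not taken to pair the arrays, since not every same-letter pair correlated above 0.1. In adults 10 of 20 same-letter pairs did, against 34 of 140 pairs with different letters (median 0.113 against -0.03). In juveniles 12 of 40 did, against 34 of 120 (median 0.0177 against -0.04). Same-letter pairs thus passed 0.1 more often than the others in adults, and this criterion cannot show that the letters carry no shared deviation. With the letter as a replicate block, 9 members were called in juvenile FV10, 1 by the juvenile F test and 5 by the FV10 term, 0 in the other comparisons, and 51 adult and 89 juvenile members had all 4 intervals within 2-fold.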
